A study of Mus musculus with 2 samples.

Results

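The 9 genes described here are the Notch ligands Dll4, Jag1 and Jag2, the receptors Notch1 and Notch4, and the target genes Hey1, Hey2, Hes1 and Nrarp. They were chosen by symbol from the 32285 genes of the deposited tables and followed through lymphatic endothelial, blood endothelial, stromal and melanoma barcodes of both single-cell libraries. All 9 had UMIs (unique molecular identifiers, each standing for 1 captured RNA molecule) in both libraries. One library came from Ifngr1iProx1 mice (Cre plus) and the other from Ifngr1WT mice (Cre minus). Ifngr1 codes for a chain of the receptor for interferon-γ. Prox1, which the genotype also names, codes for the transcription factor behind lymphatic endothelial identity. The labels used here state neither how the Cre is induced nor which stretch of Ifngr1 is removed, and they give no age. Mice of both genotypes carried tumors of B16F10-OVALBUMIN/VEGFC, a mouse melanoma line whose name adds ovalbumin, a common test antigen, and VEGF-C, which makes lymphatic vessels grow. Each mouse received 500K cells by intradermal injection, and on day 15 the tumors were removed, combined 3 to a genotype, and sorted for DAPI-, CD31+, CD45- cells. With 1 pooled library per genotype there were no replicates and no test. Every interval in square brackets is a 95% interval for counting error, which does not cover differences between mice, tumors or sorts. Intervals of levels and ratios do not cover differences between the barcodes of a class either.

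Notch signalling passes between touching cells. A ligand of the Delta-like or Jagged families on one cell binds a Notch receptor on its neighbour, the receptor is cut, and its intracellular domain enters the nucleus, joins the DNA-binding protein RBPJ and switches on targets of the Hes and Hey families, which are repressors, and Nrarp, a feedback inhibitor of the pathway. In growing blood vessels Dll4 on a leading tip cell holds back sprouting in the neighbouring stalk cells, and the pathway also sets arterial identity, in which Hey1 and Hey2 take part. Lymphatic vessels use Notch in sprouting and in valve formation, and pericytes and vascular smooth muscle cells depend on the receptor Notch3.

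Barcodes were assigned to classes by their UMIs of marker genes, none of which is a Notch gene, and a class carries the ending "-like" because it rests on markers alone. Where 2 values stand side by side below with no library named, the first is from Cre plus and the second from Cre minus. The LEC-like (lymphatic endothelial) class held 716 and 182 barcodes, the BEC-like (blood endothelial) class 164 and 177, the stromal-like class, which takes pericytes and fibroblasts together, 29 and 21, and the melanoma-like class 449 and 789. The sort was for endothelial cells, so the last 2 classes are cells or RNA that passed it. The 7 lymphatic markers summed to 7944 and 9652 CPM (UMIs per 1000000 UMIs of the class) in LEC-like barcodes and to 208 and 211 CPM in BEC-like ones, and the 8 blood endothelial markers summed to 587 and 582 CPM in LEC-like and to 8585 and 10265.5 CPM in BEC-like barcodes. The targeted gene, Ifngr1, had a Cre plus over Cre minus log2 ratio of -0.86 [-1.18, -0.53] in the LEC-like class, from 29.3 and 53.2 CPM, and of -1.46 [-1.82, -1.08] and -0.86 [-1.70, -0.0050] among the Malat1-rich and Malat1-poor barcodes defined below. It stood at 190 and 170 CPM in the BEC-like class, a ratio of 0.17 [-0.0021, 0.34]. The LEC-like barcodes of the libraries differed in depth and in Malat1, an RNA kept in the nucleus: the median barcode had 17228 UMIs in the Cre plus library against 5927 in the Cre minus library, and those in which Malat1 made up 0.1% of UMIs or more (called Malat1-rich) were 429 of 716 and 37 of 182. BEC-like barcodes were nearer to each other, with medians of 17680 and 11362 UMIs and 134 of 164 and 128 of 177 Malat1-rich barcodes. Values within Malat1-rich barcodes are therefore given beside many results of the members. They are not given for other pathway genes, and a result shown without them may still depend on Malat1.

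The stretch of 250 bases before the annotated start was read from RefSeq (GRCm38.p6) for 7 of the 9 genes, without Hey1 and Hes1. It is printed for 3 genes from different steps of the pathway that all stood higher in BEC-like than in LEC-like barcodes: Dll4 (ligand, chr2:119325534-119325783, plus strand), Notch4 (receptor, chr17:34564045-34564294, plus strand) and Nrarp (target, chr2:25180508-25180757, plus strand). Capitals mark matches on either strand to the letters TGGGAA (the core of the RBPJ motif), AGGAAG (an ETS-type motif of factors active in endothelium) or CACGTG (the E-box).
Dll4: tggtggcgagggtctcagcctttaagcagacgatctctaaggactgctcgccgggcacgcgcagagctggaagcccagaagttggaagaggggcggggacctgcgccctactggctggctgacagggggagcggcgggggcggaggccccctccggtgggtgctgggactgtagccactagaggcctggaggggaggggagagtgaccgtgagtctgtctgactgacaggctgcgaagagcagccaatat
Notch4: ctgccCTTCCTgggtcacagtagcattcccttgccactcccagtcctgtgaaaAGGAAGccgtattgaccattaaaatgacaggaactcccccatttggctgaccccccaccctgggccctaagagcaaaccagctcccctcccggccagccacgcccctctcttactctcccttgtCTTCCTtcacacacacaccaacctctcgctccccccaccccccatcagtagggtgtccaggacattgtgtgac
Nrarp: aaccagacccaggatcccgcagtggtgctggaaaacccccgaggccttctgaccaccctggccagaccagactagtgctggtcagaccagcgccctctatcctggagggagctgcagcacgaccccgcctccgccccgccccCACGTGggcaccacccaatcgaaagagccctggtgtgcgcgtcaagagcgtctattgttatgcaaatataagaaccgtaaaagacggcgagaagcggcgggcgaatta
The Notch4 window held 3 ETS-type matches, whose first bases lay 245, 197 and 73 bases before the start, with the 1 at 197 on the gene's own strand. The Nrarp window held 1 E-box, 108 bases before the start, and the Hey2 window, not printed, held 1 RBPJ match, 207 bases before it. Among all 32817 windows of this length in the table, 29.5% held the ETS-type letters, 21.6% the RBPJ letters and 6.02% the E-box letters, so a match describes the window and no more. None of the matches overlapped another, and the windows of Dll4, Jag1, Jag2 and Notch1 held none of these letters. The RefSeq starts match the gene positions given below only for Dll4 and Nrarp. The windows of Notch1 (chr2:26503823-26504072) and Jag2 (chr12:112929496-112929745) lie inside those positions. The windows of Jag1, Notch4 and Hey2 overlap them.

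Dll4, Jag2, Notch4, Hey1 and Nrarp stood more than 4-fold higher in blood than in lymphatic endothelial barcodes of both libraries when all barcodes were summed, the ratio of Hes1 was within counting error of 0, and Jag1 and Notch1 lay between. A member was counted as past the fold when it had at least 50 UMIs over both classes and a ratio of at least 1.5 either way. Of 8 members with enough UMIs, 6 were past the fold in Cre plus, all higher in BEC-like barcodes, where 14.1% of 11575 genes were past it in that direction, and 7 of 8 in Cre minus, where 28.6% of 8459 genes were. The median log2 ratio of the members was 2.23 in Cre plus and 2.40 in Cre minus, beside -0.12 and 0.18 over all genes tested. Within Malat1-rich barcodes 6 of 8 members were past the fold in each library, beside 12.6% and 14.5% of genes, and the members' medians were 2.10 and 1.76. Each UMI marks the 3′ end of 1 transcript whatever its length, but capture differs from gene to gene, so levels are compared here for 1 gene across classes and not between genes.

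**Figure D1:**
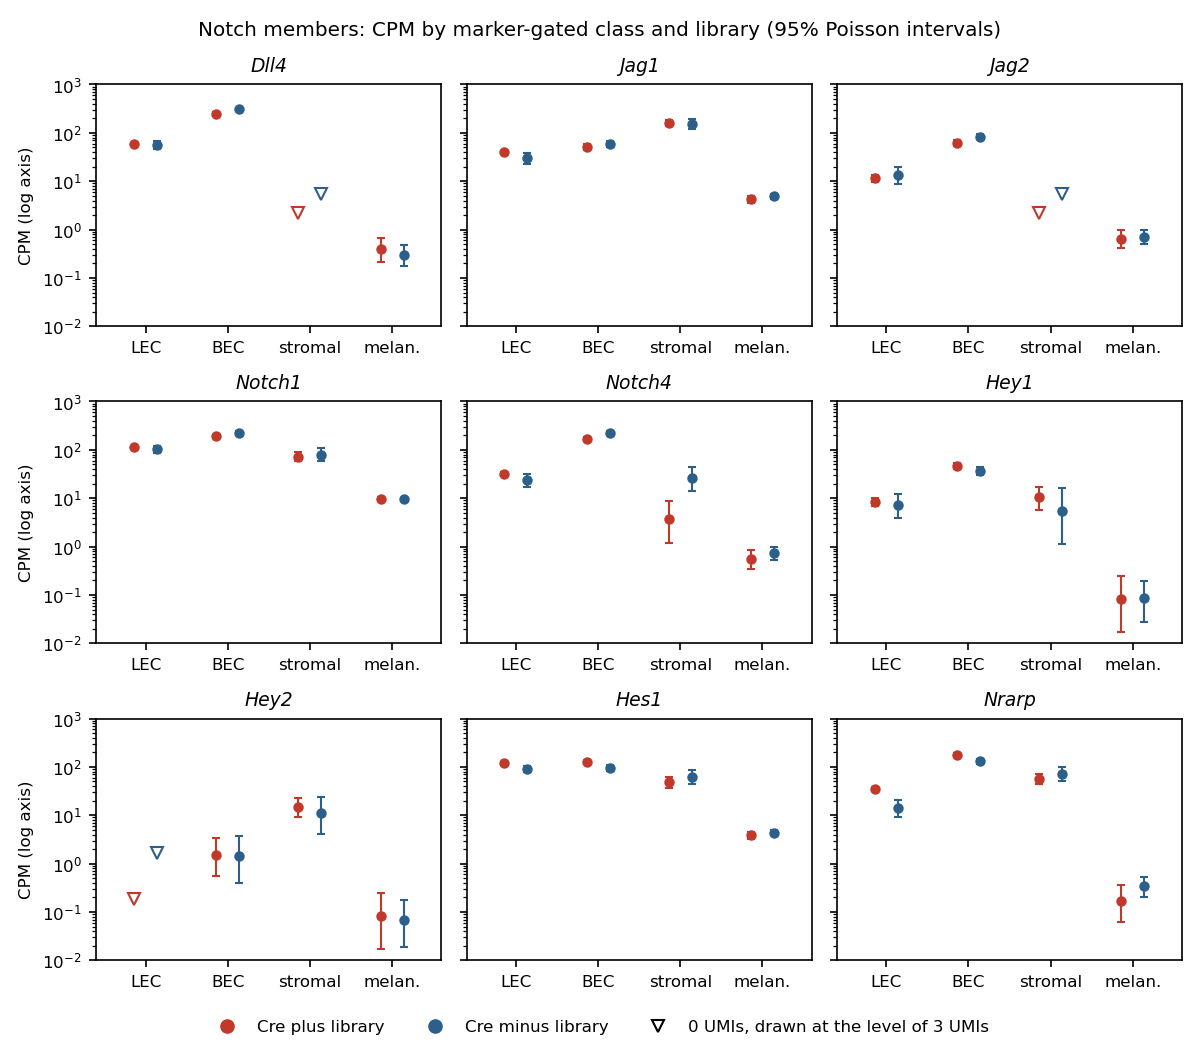
Summed UMIs as CPM (log axis) of each of the 9 genes in LEC-like, BEC-like, stromal-like and melanoma-like barcodes of the Cre plus (red) and Cre minus (blue) library; bars are 95% Poisson intervals and open triangles mark classes with 0 UMIs, drawn at the level that 3 UMIs would give. Dll4, Jag2, Notch1, Notch4, Hey1, Nrarp and Hes1 are highest in BEC-like barcodes in both libraries, Hes1 within counting error of LEC-like barcodes. Jag1 and Hey2 are highest in stromal-like barcodes, and every member is lowest in melanoma-like barcodes or at 0 in another class.

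Dll4 (chr2:119325784-119335962, plus strand, mm10), the ligand of tip and arterial endothelial cells, stood at 252 and 311 CPM in BEC-like barcodes and at 58.0 and 57.1 CPM in LEC-like ones. The BEC-like over LEC-like log2 ratio was 2.12 [1.99, 2.25] for Cre plus, 2.44 [2.15, 2.75] for Cre minus, and within Malat1-rich barcodes 1.98 [1.84, 2.11] and 1.58 [1.27, 1.90]. Melanoma-like barcodes had 14 and 18 Dll4 UMIs (0.392 and 0.306 CPM) and stromal-like barcodes none in either library, so Dll4 was at least 113-fold and 55.9-fold lower there than in BEC-like barcodes, with the floor set at 3 UMIs per class and library. The order was thus BEC-like, then LEC-like, then melanoma-like, and the place of the stromal-like class could not be set against the melanoma-like class at its depth.

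The share of barcodes with a Dll4 UMI depends on depth, so every barcode was also thinned to 2000 UMIs. In BEC-like barcodes the share was 72.6% and 67.8% before thinning and 35.1% [27.5, 43.3] and 39.0% [31.6, 46.7] after it. In LEC-like barcodes it was 46.1% and 18.7% before and 9.08% [7.03, 11.5] and 2.25% [0.62, 5.65] after. Red cell barcodes, which should lack Dll4, had medians of 6761 and 7831 UMIs. They had a Dll4 UMI in 0.427% of 234 barcodes in Cre plus and in 0 of 223 in Cre minus, which allows a share of up to 1.64%. Free RNA, as read there, was thus below the unthinned share of both endothelial classes in both libraries. Melanoma-like barcodes, where free RNA can also be read, had a Dll4 UMI in 3.12% and 2.15% of barcodes before thinning. After thinning, melanoma-like barcodes were at 0% and 0.262%, and the Cre minus LEC-like share rested on 4 barcodes.

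Jag1 (chr2:137081456-137116644, minus strand), a ligand that vascular smooth muscle and endothelial cells both make, was higher in stromal-like barcodes than in either endothelial class. It stood at 158 and 154 CPM in stromal-like barcodes, 50.05 and 58.7 CPM in BEC-like, 39.5 and 29.7 CPM in LEC-like and 4.22 and 4.85 CPM in melanoma-like ones. The stromal-like over BEC-like log2 ratio was 1.66 [1.38, 1.95] and 1.39 [0.99, 1.78], in libraries where 18.6% and 19.9% of genes were past the fold in that direction. Between the endothelial classes Jag1 was 0.34 [0.10, 0.58] higher in BEC-like barcodes of Cre plus, under the fold, and 0.98 [0.53, 1.46] higher in those of Cre minus. With classes taken from clusters in place of the marker gate the Cre minus ratio was 0.11 [-0.25, 0.49], an interval that holds 0. Among Malat1-rich barcodes Jag1 made up 186 of 3749354 BEC-like and 626 of 13848768 LEC-like UMIs in Cre plus. In Cre minus it made up 154 of 2519301 and 31 of 822957.

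Jag2 (chr12:112907819-112929776, minus strand), the other Jagged ligand, followed Dll4 and not Jag1. Its level was 61.8 and 83.6 CPM in BEC-like, 11.5 and 13.4 CPM in LEC-like barcodes and as low as 0.643 and 0.714 CPM in melanoma-like ones, and stromal-like barcodes had no Jag2 UMI. The BEC-like over LEC-like log2 ratio was 2.43 [2.15, 2.71] and 2.64 [2.03, 3.31], and within Malat1-rich barcodes 2.31 [2.02, 2.60] and 1.95 [1.26, 2.73]. Over the 8 sums of 4 classes in 2 libraries the log2(CPM + 1) values of Dll4 and Jag2 correlated at r = 0.99, against 0.15 for Dll4 and Jag1, points that share the libraries and their depth.

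Notch1 (chr2:26457903-26516663, minus strand), the receptor that most cell types carry, was present in all 4 classes. It stood at 194 and 223 CPM in BEC-like barcodes, 114 and 103 in LEC-like, 72.9 and 79.6 in stromal-like and 9.79 and 9.50 in melanoma-like ones. BEC-like barcodes were 0.77 [0.64, 0.89] and 1.12 [0.88, 1.37] above LEC-like ones on the log2 scale, but only 0.32 [0.069, 0.58], under the fold, within Malat1-rich barcodes of Cre minus. Stromal-like Notch1 was below LEC-like Notch1 by a log2 ratio of -0.64 [-0.95, -0.35] in Cre plus, and at -0.36 [-0.88, 0.12] in Cre minus the 2 classes were within counting error.

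Notch4 (chr17:34564268-34588503, plus strand), a receptor largely restricted to endothelium, had one of the widest gaps between the endothelial classes. Its level was 169 and 223 CPM in BEC-like against 32.2 and 23.5 CPM in LEC-like barcodes, log2 ratios of 2.39 [2.22, 2.56] and 3.25 [2.80, 3.73], and 2.30 [2.12, 2.47] and 3.16 [2.54, 3.84] within Malat1-rich barcodes. Stromal-like barcodes had 5 and 14 Notch4 UMIs (3.72 and 25.9 CPM), and melanoma-like barcodes stood at 0.559 and 0.731 CPM. In Cre minus the stromal-like level was within counting error of the LEC-like level, with a log2 ratio of 0.14 [-0.85, 1.04].

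Hey1 (chr3:8663359-8667256, minus strand), a repressor linked to arterial fate, stood at 47.0 and 37.1 CPM in BEC-like against 8.40 and 7.28 CPM in LEC-like barcodes. The log2 ratios were 2.48 [2.16, 2.81] and 2.35 [1.51, 3.31], the latter from 103 and 13 UMIs. Stromal-like barcodes had 14 and 3 Hey1 UMIs (10.4 and 5.56 CPM), within counting error of the LEC-like level, and melanoma-like barcodes 3 and 5 UMIs.

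Hey2 (chr10:30832359-30842801, minus strand), its close relative, had too few UMIs to be counted in any comparison between endothelial classes. LEC-like barcodes had none, BEC-like barcodes 6 and 4, and stromal-like barcodes 20 and 6, which are 14.9 and 11.1 CPM. The stromal-like over BEC-like log2 ratio was 3.28 [1.91, 4.88] and 2.95 [0.87, 5.21]. In Cre plus Hey2 was at least 80.9-fold higher in stromal-like than in LEC-like barcodes, and in Cre minus at least 6.61-fold, again against a floor of 3 UMIs.

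Hes1 (chr16:30064384-30067796, plus strand), a repressor that other pathways switch on as well, did not differ between the endothelial classes beyond counting error when all barcodes were summed. It stood at 128 and 94.8 CPM in BEC-like against 119 and 91.3 CPM in LEC-like barcodes, log2 ratios of 0.10 [-0.041, 0.25] and 0.054 [-0.23, 0.34]. Stromal-like barcodes had 48.3 and 63.0 CPM and melanoma-like barcodes 3.83 and 4.35 CPM. Leaving out cycling barcodes moved the Cre minus ratio to 0.54 [0.15, 0.95], still under the fold. Among Malat1-poor barcodes of Cre plus Hes1 was past the fold and higher in BEC-like ones. It made up 16 of 166873 BEC-like and 127 of 2465910 LEC-like UMIs there. Among those of Cre minus its log2 ratio was -0.39, under the fold, from 15 and 74 UMIs.

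Nrarp (chr2:25180758-25183339, plus strand), the feedback inhibitor, stood at 178 and 130 CPM in BEC-like, 57.3 and 72.2 CPM in stromal-like and 35.1 and 14.0 CPM in LEC-like barcodes, with 0.168 and 0.340 CPM in melanoma-like ones. The BEC-like over LEC-like log2 ratios were 2.35 [2.18, 2.51] and 3.21 [2.63, 3.86], and within Malat1-rich barcodes 2.22 [2.05, 2.38] and 2.74 [2.02, 3.56]. Stromal-like barcodes were between the 2 endothelial classes in both libraries, above LEC-like by 0.71 [0.35, 1.05] and 2.37 [1.61, 3.15] and below BEC-like at -1.64 [-1.997, -1.30] and -0.85 [-1.36, -0.37].

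**Figure D2:**
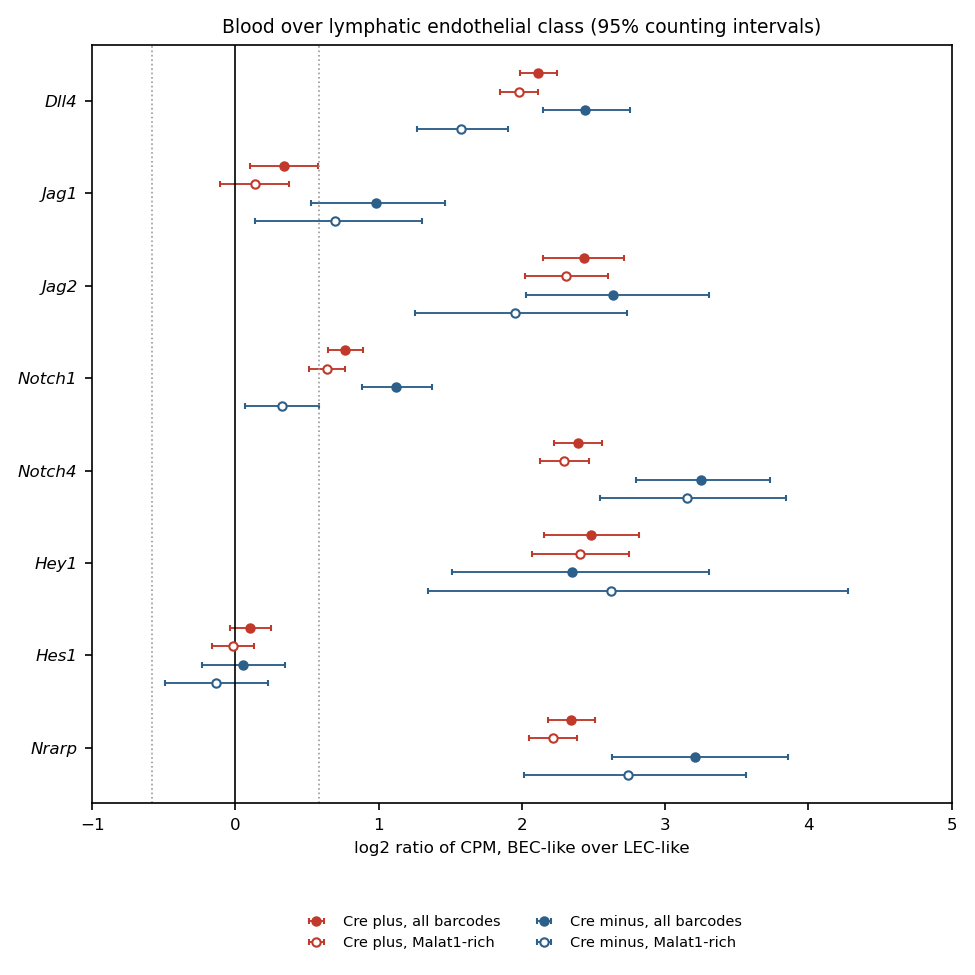
Log2 ratio of CPM in BEC-like over LEC-like barcodes for 8 members in the Cre plus (red) and Cre minus (blue) library, over all barcodes (filled) and over Malat1-rich barcodes (open), with 95% counting intervals; dotted lines mark a 1.5-fold ratio and Hey2, with 0 UMIs in LEC-like barcodes, is left out. Dll4, Jag2, Notch4, Hey1 and Nrarp lie to the right of the fold line in all 4 settings, and Hes1 lies at 0.

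The stromal-like class lacked the endothelial ligands Dll4 and Jag2 at its depth and differed from BEC-like barcodes in every counted member. Of 8 counted members, 7 were lower and Jag1 higher in stromal-like than in BEC-like barcodes in each library, where 46.1% of genes in Cre plus and 49.0% in Cre minus were past the fold either way. Against LEC-like barcodes 7 of 8 were past the fold in Cre plus, 2 of them (Jag1 and Nrarp) higher, and 3 of 6 in Cre minus, the same 2 higher and Dll4 lower, beside 46.7% and 45.3% of genes. The class is small and its UMIs are concentrated: the 10 barcodes with most Nrarp UMIs held 88.3% of them in Cre plus and 100% in Cre minus. Blood endothelial markers summed to 387 and 389 CPM in it, most of it from Flt1, at 330 and 239 CPM. Cd34 stood at 28.3 and 104 CPM and Plvap at 7.44 and 1.85 CPM, and Aplnr had no UMI. Emcn stood at 14.1 and 37.04 CPM and Ptprb at 4.46 and 1.85 CPM. Among general endothelial markers, Eng stood at 107 and 98.16 CPM and Pecam1 at 2.23 and 1.85 CPM, and Cdh5 had no UMI. How much of the sum came from endothelial RNA was not tested. Of the UMIs of this class 0 were Dll4 or Jag2.

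Another 54 pathway genes outside the 9 members show which Notch parts each class carries. Notch3, the pericyte and smooth muscle receptor, stood at 489 and 548 CPM in stromal-like barcodes, at 0.511 and 1.08 in BEC-like and at 0.184 and 0 in LEC-like ones. Heyl, a target of Notch3 in mural cells, stood at 90.7 and 92.6 CPM in stromal-like barcodes, had no UMI in BEC-like barcodes and had 12 and 0 UMIs in LEC-like ones. Dlk1, a Delta-like protein that lacks the receptor-activating domain, stood at 125 and 378 CPM in stromal-like barcodes and had 0 UMIs in all endothelial ones. Rbpj, the DNA-binding partner of every Notch receptor, was higher in stromal-like than in LEC-like barcodes by 1.25 [0.99, 1.51] and 1.56 [0.98, 2.14] on the log2 scale. The genes named here all stood higher in the stromal-like class. Against BEC-like barcodes 9 pathway genes were past the fold and higher and 15 lower of 40 counted in Cre plus. In Cre minus 5 were higher and 13 lower of 35, and 46.1% and 49.0% of all genes were past the fold either way. Against LEC-like barcodes 9 were higher and 16 lower of 44 in Cre plus. In Cre minus 8 were higher and 4 lower of 32, beside 46.7% and 45.3%.

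Between the endothelial classes the receptor Notch2 went against the members. It stood at 56.3 and 43.1 CPM in LEC-like barcodes but at 2.55 and 3.24 CPM in BEC-like ones, from 10 and 9 UMIs, log2 ratios of -4.46 [-5.53, -3.58] and -3.73 [-4.92, -2.73]. Mfng, a glycosyltransferase that changes which ligands a receptor answers to, went with the members, at 102 and 94.4 CPM in BEC-like against 26.3 and 28.0 CPM in LEC-like barcodes. The ligand Dll1, the ubiquitin ligase Neurl1b, the γ-secretase subunit Ncstn and the co-activator Maml3 were also past the fold and higher in BEC-like barcodes of both libraries, and Psen2, a catalytic γ-secretase subunit, was lower in both. In all, 7 pathway genes were higher and 5 lower of 41 counted in Cre plus, and 12 were higher and 2 lower of 33 counted in Cre minus. Either way these were 12 of 41 and 14 of 33, beside 35.2% and 44.2% of all genes, so the counts were near the background. The medians of these genes, 0.043 and 0.40, lay far below those of the 8 counted members.

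**Figure D3:**
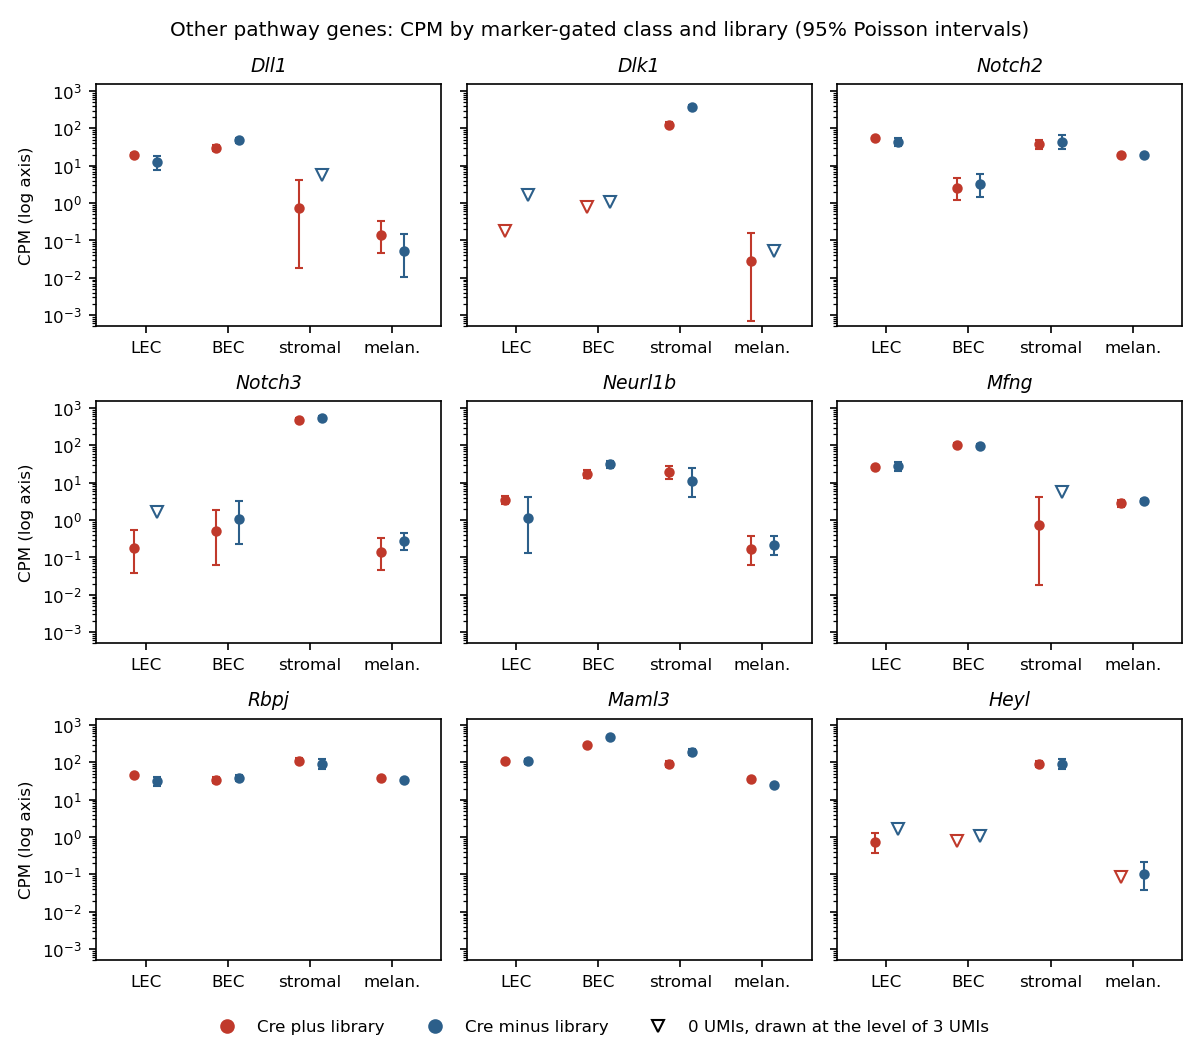
Summed UMIs as CPM (log axis) of 9 other pathway genes, picked after their values were seen, in the 4 classes of the Cre plus (red) and Cre minus (blue) library, with 95% Poisson intervals; open triangles mark 0 UMIs at the level of 3 UMIs. Notch3, Heyl and Dlk1 stand apart in stromal-like barcodes, and Notch2 is lowest in BEC-like barcodes.

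Within BEC-like barcodes Hey1, Notch1, Notch4 and Jag2 were higher where arterial markers were higher. Barcodes were split at the median, over both libraries, of their UMIs of 6 arterial markers (Gja5, Gja4, Sema3g, Bmx, Efnb2 and Sox17). Over all barcodes 4 of 8 members (Cre plus) and 6 of 8 (Cre minus) were past the fold, all higher above the median, beside 13.2% and 28.5% of genes. Malat1-rich barcodes were 89.0% above and 74.4% below the median in Cre plus and 89.8% and 55.1% in Cre minus, so the values below are for Malat1-rich barcodes, a choice made after seeing the data, with 73 above and 61 at or below the median in Cre plus and 79 and 49 in Cre minus. Hey1 stood at 84.2 CPM above and 19.7 CPM below in Cre plus and at 74.7 and 5.85 CPM in Cre minus, log2 ratios of 2.10 [1.59, 2.64] and 3.67 [2.63, 4.93], the latter from 86 and 8 UMIs. Notch1 was higher above the median by 0.96 [0.74, 1.18] and 1.43 [1.18, 1.69], Notch4 by 0.77 [0.54, 1.002] and 0.96 [0.72, 1.21], and Jag2 by 0.98 [0.59, 1.37] and 0.62 [0.21, 1.02]. Dll4 was higher by 0.40 [0.22, 0.59], under the fold, in Cre plus and by 1.02 [0.81, 1.22] in Cre minus. Jag1, Hes1 and Nrarp were under the fold in both libraries. Thus 4 of 8 members were past the fold in Cre plus, beside 12.2% of genes in that direction, and 5 of 8 in Cre minus, beside 22.4%. Both sides of the split differed in cycling too, with barcodes carrying UMIs of at least 3 cycling markers at 17.8% above and 31.1% below the median in Cre plus and at 11.4% and 28.6% in Cre minus, and the part of cycling in these ratios was not tested.

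Split by tip markers (Esm1, Apln, Angpt2, Pgf, Cxcr4 and Nid2), 1 of 8 members over all barcodes was past the fold in Cre plus (Hey1, lower), beside 17.3% of genes, and 4 of 8 in Cre minus, all higher, beside 17% of genes. Dll4 was the member that was higher above the median in both libraries with an interval off 0. Among Malat1-rich barcodes it stood at 289 CPM above and 217 CPM below in Cre plus, a log2 ratio of 0.42 [0.23, 0.61], and at 427 and 189 CPM in Cre minus, a ratio of 1.17 [0.93, 1.42]. Hey1 went opposite ways, at -0.71 [-1.16, -0.27] in Cre plus and 2.36 [1.41, 3.47] in Cre minus. Hey1 was the 1 member of 8 past the fold in Cre plus, beside 18.8% of genes, and 3 of 8 (Dll4, Hey1 and Hes1) were past it in Cre minus, beside 17.5%. The share of cycling barcodes was 27.1% above and 21.3% below the median in Cre plus but 11.4% and 25.9% in Cre minus, the opposite order, and its part in the opposite Hey1 ratios was not tested.

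Barcodes with more venous marker UMIs (Ackr1, Selp, Vwf, Nr2f2 and Vcam1) had less Hey1 in both libraries, with log2 ratios of -1.15 [-1.60, -0.69] and -1.86 [-2.48, -1.24] among Malat1-rich barcodes. Jag1 and Jag2 were lower by more than the fold in Cre plus, at -1.19 [-1.64, -0.74] and -1.32 [-1.71, -0.93], but at -0.43 [-0.93, 0.085] and -0.24 [-0.67, 0.21] in Cre minus their intervals held 0. Over all barcodes 3 of 8 members (Cre plus) and 2 of 8 (Cre minus) were past the fold, beside 18.1% and 16.8% of genes. Among Malat1-rich ones 3 of 8 members were past the fold in Cre plus, beside 21.7% of genes, and 2 of 8 (Hey1 lower, Hes1 higher) in Cre minus, beside 28.9%. Venous markers were sparse, so the split follows depth: the median was 29696 UMIs above and 11535 below in Cre plus and 16248 and 11668 in Cre minus. Cycling barcodes were 29.9% above and 12.8% below in Cre plus and 18.7% and 17.0% in Cre minus, and the part of depth and cycling in these ratios was not tested.

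**Figure D4:**
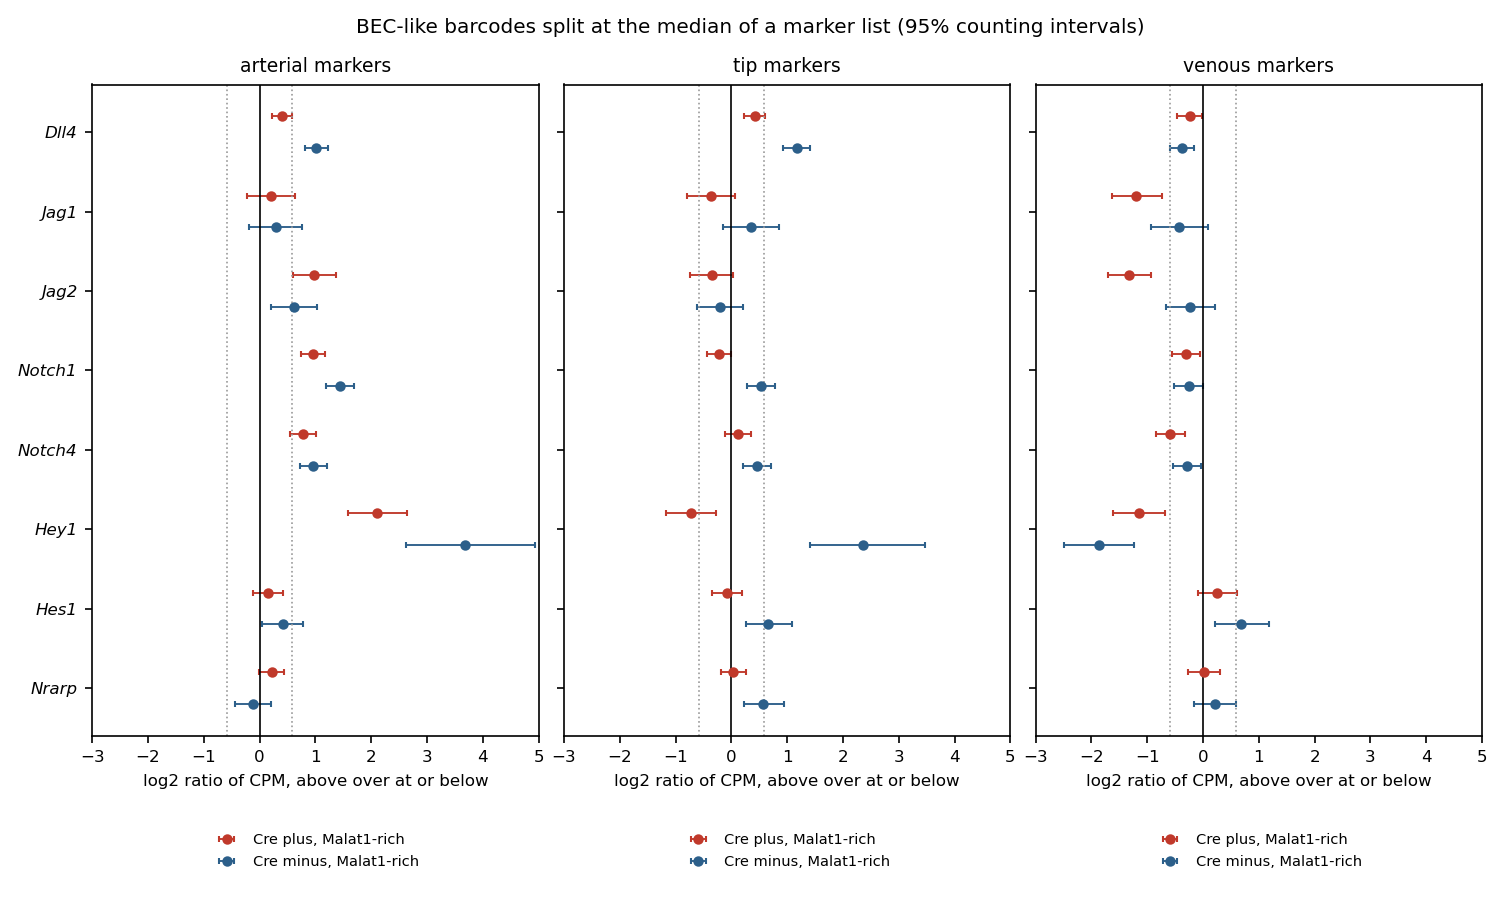
Log2 ratio of CPM between Malat1-rich BEC-like barcodes above and those at or below the median of arterial, tip or venous markers, for 8 members in the Cre plus (red) and Cre minus (blue) library, with 95% counting intervals and dotted lines at 1.5-fold. Hey1, Notch1, Notch4 and Jag2 lie past the fold line for arterial markers in both libraries, and Hey1 lies on opposite sides of 0 for tip markers.

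Cycling BEC-like barcodes had less Hey1 and Jag2 than the others in both libraries. Hey1 stood at 33.7 against 56.2 CPM in Cre plus, a log2 ratio of -0.74 [-1.22, -0.27], and at 7.16 against 53.4 CPM in Cre minus, a ratio of -2.90 [-4.25, -1.80]. Jag2 was at -0.71 [-1.13, -0.30] and -1.02 [-1.51, -0.56]. These were the 2 of 8 members past the fold in Cre plus, beside 28.3% of genes, and 5 of 8 were past it in Cre minus, all lower, beside 52.7%, so the counts were near the background. In LEC-like barcodes it was Jag1 that was lower in cycling barcodes of both libraries, at -0.68 [-0.93, -0.44] and -1.16 [-2.46, -0.059], the second from 8 and 45 UMIs. In Cre plus 2 of 8 members, Jag1 and Jag2, were past the fold, both lower, beside 14.8% of genes. In Cre minus 3 of 4 were, beside 24.0%, with Jag1 lower but Dll4, at 0.76 [0.15, 1.35], and Hes1, at 1.42 [0.96, 1.88], higher. Cycling barcodes were deeper than the others, with BEC-like medians of 40216 against 14917 UMIs in Cre plus and 13306 against 11274 in Cre minus. LEC-like medians were 30995.5 against 13349.5 and 9500.5 against 5590. Malat1-rich shares of LEC-like barcodes were 66.3% against 57.4% and 36.7% against 17.1%. The part of depth and Malat1 in these ratios was not tested.

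In LEC-like barcodes the members followed Malat1 content. Every one of 8 counted members was past the fold and higher in Malat1-rich than in Malat1-poor barcodes of Cre plus, and 3 of 4 in Cre minus, where 58.5% and 54.5% of genes were. Dll4 stood at 64.7 CPM in Malat1-rich and 20.7 CPM in Malat1-poor barcodes of Cre plus and at 113 and 9.36 CPM in those of Cre minus, and Notch1 at 127 and 40.6 CPM and at 193 and 24.9 CPM. In Cre minus 93 of the 102 Dll4 UMIs were in the 37 Malat1-rich barcodes. Split by collecting vessel and valve markers (Foxc2, Gata2, Itga9, Cldn11, Gja1 and Nfatc1), 5 of 8 members were past the fold and higher above the median in Cre plus, beside 39.5% of genes, but Malat1-rich barcodes were 89.8% above and 23.3% below that median. Within Malat1-rich barcodes of Cre plus 0 of 8 were past the fold, beside 17.4% of genes, and Dll4 was at 0.41 [0.11, 0.72] and Jag1 at 0.50 [0.13, 0.89]. Only 4 Malat1-rich barcodes of Cre minus lay below the median, too few to compare.

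Notch4 was higher where Dll4 was higher within Malat1-rich LEC-like barcodes of Cre plus. When Malat1-rich LEC-like barcodes of Cre plus were split at the median of Dll4 itself, a split chosen after seeing the data, Notch4 stood at 47.2 CPM above and 22.6 CPM below, a log2 ratio of 1.06 [0.78, 1.35], and Hey1 at 11.6 and 6.63 CPM, a ratio of 0.81 [0.26, 1.36], while Notch1 was at 0.18 [0.040, 0.31] and Nrarp at 0.062 [-0.19, 0.31]. Leaving Dll4 aside, these were 2 members past the fold, where 2.53% of genes were past it in that direction. The same split in Cre minus, of 23 and 14 barcodes, rested on 18 and 4 Notch4 UMIs, with a ratio of 1.11 [-0.49, 3.13]. Besides Dll4, only Notch1 and Hes1 had enough UMIs to be counted there. Both were lower above the Dll4 median, 1 of them past the fold. In Malat1-rich BEC-like barcodes Notch1 was past the fold in both libraries, at 0.70 [0.49, 0.91] and 1.21 [0.96, 1.46]. Leaving Dll4 aside, 2 members (Notch1 and Nrarp) were past it there in Cre plus and 3 (Notch1, Notch4 and Hey1) in Cre minus, beside 6.65% and 18.7% of genes.

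Between the genotypes, 1 of 8 counted members differed by more than the fold in LEC-like barcodes, where 23.8% of 11190 genes did. It was Nrarp, at 35.1 against 14.0 CPM, a log2 ratio of 1.32 [0.75, 1.964]. The Cre minus value rests on 25 UMIs in 12 of 182 barcodes, and 10 of those barcodes held 92% of them. The ratio was 0.98 [0.27, 1.80] among Malat1-rich barcodes, from 532 and 16 UMIs, and 0.79 [-0.27, 2.02] among Malat1-poor ones, from 40 and 9. The members' median was 0.29, beside 0.24 over all genes, so the list as a whole stood with the general shift of this class. Summed markers of other cells differed between the LEC-like classes too, none of them at 0 except 1 of 7 macrophage markers in Cre minus: the 8 melanoma markers stood at 69.6 and 146 CPM, the macrophage markers at 30.1 and 61.6 CPM and the 4 red cell markers at 552 and 348 CPM. Their part in the genotype ratios was not tested.

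Dll4 and Notch1 showed how far the LEC-like comparison moves with Malat1. Over all barcodes Dll4 was level, at 58.0 and 57.1 CPM, a log2 ratio of 0.023 [-0.27, 0.33], and Notch1 was at 0.15 [-0.070, 0.38]. Among Malat1-rich barcodes both were lower in Cre plus: Dll4 at 64.7 against 113 CPM, a ratio of -0.80 [-1.11, -0.48], and Notch1 at 127 against 193 CPM, a ratio of -0.61 [-0.84, -0.37]. Among Malat1-poor barcodes both were higher in Cre plus, at 1.14 [0.11, 2.35] and 0.70 [0.047, 1.41], from 51 and 9 UMIs of Dll4 and 100 and 24 of Notch1. Jag2 was at -0.77 [-1.47, 0.021] among Malat1-rich barcodes, which made 4 of 8 members past the fold there, 3 lower and Nrarp higher, beside 27.2% of genes either way. The Cre minus side of that comparison is 37 barcodes, and the part of Malat1 content in the genotype ratios was not tested.

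The remaining LEC-like members were under the fold. Jag1 was at 0.41 [0.0055, 0.84], Notch4 at 0.45 [-0.00026, 0.94], Hes1 at 0.38 [0.15, 0.62] and Hey1 at 0.21 [-0.62, 1.15]. Hes1 stood at 0.99 [0.66, 1.34] without cycling barcodes and at -0.58 [-1.003, -0.15] among Malat1-poor ones, so its direction is not fixed across these settings. Jag1 was at -0.26 [-0.57, 0.053] with classes from clusters and at -1.65 [-2.63, -0.68] among Malat1-poor barcodes, from 18 and 22 UMIs.

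**Figure D5:**
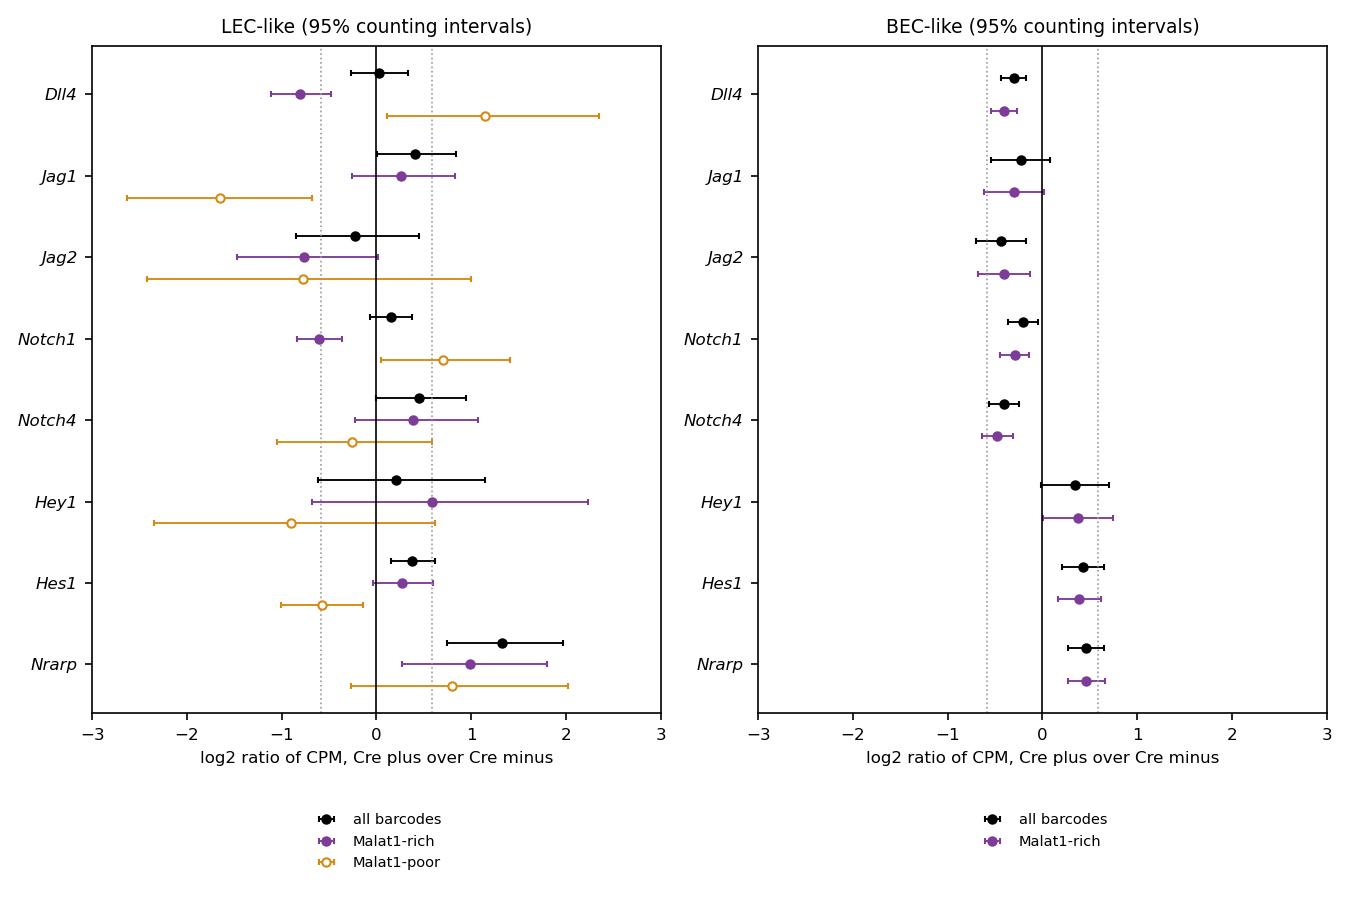
Log2 ratio of CPM in Cre plus over Cre minus for 8 members in LEC-like (left) and BEC-like (right) barcodes, over all barcodes (black), Malat1-rich barcodes (purple) and, for LEC-like, Malat1-poor barcodes (orange, open), with 95% counting intervals and dotted lines at 1.5-fold. LEC-like Dll4 and Notch1 lie on opposite sides of 0 in Malat1-rich and Malat1-poor barcodes. BEC-like values move little between all and Malat1-rich barcodes. Malat1-poor barcodes, not drawn for BEC-like, put Dll4 at 1.82 and Notch1 at 1.40.

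In BEC-like barcodes 0 of 8 members differed by the fold, where 14.7% of 9337 genes did. Dll4 was at -0.30 [-0.44, -0.17], Jag2 at -0.44 [-0.70, -0.17], Notch1 at -0.21 [-0.36, -0.052] and Notch4 at -0.40 [-0.57, -0.24], and Jag1, at -0.23 [-0.54, 0.078], had an interval that held 0. Hes1 was at 0.43 [0.21, 0.65] and Nrarp at 0.46 [0.27, 0.65], with Hey1 at 0.34 [-0.016, 0.70], an interval that also held 0. Among Malat1-rich barcodes the same 8 members ran from -0.48 for Notch4 to 0.46 for Nrarp. Among Malat1-poor ones Dll4 stood at 1.82 [0.84, 2.88], from 30 and 13 UMIs, and Notch1 at 1.40 [0.26, 2.62], from 19 and 11. Both were under the count minimum there and changed sides, as in LEC-like barcodes. Jag2 was at -2.05 [-4.45, -0.28], from 3 and 19 UMIs, and Jag1, Notch4, Hey1, Hes1 and Nrarp had intervals that held 0. With each barcode thinned to 2000 UMIs Hes1 stood at -0.18 [-0.91, 0.53] and Nrarp at -0.070 [-0.67, 0.52], intervals that hold 0, and the members' median over all UMIs was -0.22 beside -0.016 over all genes. Red cell markers summed to 1792 and 79.6 CPM and melanoma markers to 51.6 and 116 CPM in these classes, none of either list at 0, and their part in these ratios was not tested.

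The genotype ratio in LEC-like barcodes minus that in BEC-like barcodes was 0.86 [0.38, 1.34] for Notch4, 0.87 [0.26, 1.47] for Nrarp and 0.64 [0.14, 1.15] for Jag1, beside a median of 0.26 over 9060 genes. Notch4 kept 0.86 [0.22, 1.497] among Malat1-rich barcodes, where the median of all genes was -0.031, and Nrarp stood at 0.52 [-0.22, 1.26]. Dll4 and Notch1 were at 0.33 [0.0045, 0.65] and 0.36 [0.089, 0.62] over all barcodes but at -0.40 [-0.74, -0.065] and -0.31 [-0.59, -0.033] among Malat1-rich ones, so they changed sides with that choice. Among Malat1-poor barcodes Notch4 was at -0.79 [-1.98, 0.39], from 43 and 20 UMIs in LEC-like and 19 and 20 in BEC-like barcodes. Jag1 also changed sides there, to -2.41 [-3.99, -0.83], from 18 and 22 UMIs in the LEC-like class and 10 and 9 in the BEC-like class, and Hes1 went from -0.049 [-0.37, 0.27] over all barcodes to -1.29 [-2.38, -0.19].

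Outside endothelium no member with enough UMIs differed by the fold between the genotypes. In stromal-like barcodes 0 of 4 did, beside 22% of genes, and Jag1 was at 0.043 [-0.33, 0.43]. Notch4, with 5 and 14 UMIs, was under the count minimum and stood at -2.80 [-4.63, -1.25]. In melanoma-like barcodes 0 of 5 did, beside 5.01%, with Notch1 at 0.043 [-0.15, 0.24] and Jag1 at -0.20 [-0.49, 0.091].

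Of the other pathway genes, 13 of 41 counted in LEC-like barcodes were past the fold between the genotypes, all of them higher in Cre plus, a direction that 21% of all genes took. They included Numb, an inhibitor that sorts the receptor for destruction, at 133 and 84.0 CPM and a log2 ratio of 0.66 [0.42, 0.91], and the chromatin regulator Kdm5a at 0.64 [0.35, 0.94]. Values within Malat1-rich barcodes are not given for these genes, and the part of Malat1 content in their ratios was not tested. In BEC-like barcodes 6 of 35 were past it, near the 14.7% of all genes, 2 higher (the glycosyltransferase Lfng and Hes6) and 4 lower (Dll1, Neurl1b, Maml3 and the co-repressor Spen). Maml3 stood at 299 and 465 CPM, a ratio of -0.64 [-0.75, -0.52]. In stromal-like barcodes 10 of 30 pathway genes were past the fold, 9 of them lower, beside 22% of all genes. Dlk1 was 1 of those lower in Cre plus, at -1.60 [-1.90, -1.29], from 168 UMIs in 17 barcodes against 204 in 12, of which a single barcode held 90. Without that barcode, a choice made after seeing the data, the ratio was -1.13 [-1.48, -0.77]. In melanoma-like barcodes 1 of 39 was, beside 5.01% of all genes. It was Hes7, a member of the Hes family, at 0.73 [0.46, 0.996].

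Across the 8 sums of 4 classes in 2 libraries, the genes whose log2(CPM + 1) followed each member most closely were ranked among 11388 genes, as a description over few points that share libraries and depth. For Dll4 the closest was Robo4, an endothelial guidance receptor, followed by Dipk2b and Klhl6. Jag2 was followed by Exoc3l2, Synpo and Cyyr1, Jag1 by Parva, Armcx3 and Armcx2, Notch1 by Nid2, Il3ra and Slfn5, and Notch4 by Zfp866, Kcnq1 and Rgl1. Hey1 was followed by Tmed9, Thbd and Mtmr11, Hes1 by Crip2, Ly6e and Pmepa1, and Nrarp by Oaf, Pcdh1 and Tmod3. The highest r of each of these 8 members lay between 0.99 and 1.00, so many genes were about as close, and Hey2, with 43 UMIs, was not ranked.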

How the data were processed

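Single-cell 3′ libraries were sequenced from sorted tumor cells, 1 per genotype. The deposited matrices hold raw counts (UMIs per gene and barcode, whole numbers), made with Cell Ranger 7.0.0 on mm10 per the submitters' processing notes; the gene annotation behind them was not given in the sources used here. The libraries held 2491 barcodes and 66704257 UMIs (Cre plus) and 2502 and 76967583 (Cre minus), and shared 1 barcode sequence. Barcodes with at least 500 genes, under 10% mitochondrial and under 50% haemoglobin UMIs were kept, 1777 and 1549.

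A class needed UMIs of at least 3 of its own markers and a minimum of marker UMIs per 10000: 15 for LEC-like, 30 for BEC-like, stromal-like and melanoma-like and 20 for macrophage-like. These minimums were set after seeing the marker values. Barcodes over the minimum of more than 1 class were left out as mixed (32 and 25), no doublet caller was run, and 19.4% and 19.0% of kept barcodes reached no class. All 898 LEC-like barcodes and 340 of the BEC-like ones (1 lay elsewhere) were in Leiden clusters of the same name (scanpy 1.11.5). Those clusters also held barcodes that reached no class, 251 in the LEC-like and 137 in the BEC-like clusters. Markers of T and NK cells, platelets, keratinocytes and Schwann cells each summed to at most 63.0 CPM in the endothelial and stromal-like classes.

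Each class of each library was reduced to 1 sum of UMIs per gene, expressed as CPM (numpy 2.4.6, scipy 1.17.1). Ratios have exact conditional binomial intervals, levels exact Poisson, shares Clopper-Pearson, and differences of ratios Wald intervals. All but those of shares treat UMIs as independent, though UMIs could be concentrated. In LEC-like barcodes of Cre minus, 10 barcodes held 63.7% of Dll4 and 10 held 74.8% of Hes1 UMIs. The method was tested on simulated counts. Samples were grouped by genotype labels. The members, gene lists and splits were chosen with earlier results of these data known. All 9 members are named. Of the 54 other pathway genes those past the fold with an interval off 0 could be named, and for likeness the 3 closest genes with at least 200 UMIs. Gene positions are from GENCODE M21 on mm10. Alternatives covered the filter, gate, scaling, thinning, Malat1, cycling, UMI minimum and fold.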

Additional observations from a re-analysis of the deposited data

How the results depend on the processing

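With 1 library per genotype no replicate could be left out. All counts of members past the fold rest on the UMI minimum and the fold, without regard to the counting interval. No paired analysis was possible because each genotype has a single library. Of 490 recomputed ratios and differences of single genes, 416 stayed within their counting interval and 74 moved. Members past the fold over all barcodes kept their sign in the class and genotype ratios. Members under it did not all do so: the LEC-like genotype ratios of Dll4 and Notch1 were -0.80 and -0.61 among Malat1-rich and 1.14 and 0.70 among Malat1-poor barcodes, and the LEC-like minus BEC-like differences of Jag1 and Notch4, 0.64 and 0.86, were -2.41 and -0.79 among Malat1-poor ones. BEC-like genotype ratios of Dll4 and Notch1 were -0.40 and -0.29 among Malat1-rich and 1.82 and 1.40 among Malat1-poor barcodes, the latter from few UMIs. The LEC-like genotype count of 1 was 2 with the stricter gate, classes from clusters, a mean over barcodes, Malat1-poor barcodes or without cycling barcodes, 3 when thinned and 4 among Malat1-rich barcodes. The BEC-like count of 0 was 1 when thinned and 1 without cycling barcodes. The melanoma-like count of 0 was 2 with a mean over barcodes, 1 among Malat1-poor barcodes and 1 with at least 20 summed UMIs. The BEC-like over LEC-like count of 7 in Cre minus was 0 among Malat1-poor barcodes, where 1 member had enough UMIs. The count of 5 for collecting vessel and valve markers in Cre plus was 0 among Malat1-rich barcodes, an alternative added after seeing the data. The cause of these moves was not tested. Hey2 had too few UMIs to be counted between the endothelial classes, and among Malat1-poor barcodes 4 members had enough for the LEC-like and 1 for the BEC-like genotype ratio.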
